A study of Mus musculus with 6 samples.

Results

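The 42 genes described here make up the outer part of the Wnt pathway. They are the 19 Wnt ligands, the 4 R-spondins (*Rspo1* to *Rspo4*) and 19 receptors of the cell surface, namely the 10 Frizzled genes, the co-receptors *Lrp5* and *Lrp6*, the kinase-like receptors *Ror1*, *Ror2*, *Ryk* and *Ptk7*, and the R-spondin receptors *Lgr4*, *Lgr5* and *Lgr6*. Members were taken by gene symbol from a table of 53342 genes, and each of the 42 symbols was found there once. Dental pulp, the soft tissue inside the tooth, was collected from 3 WT and 3 MMP13KO mice of the C57BL/6 strain at 3 months of age, and its RNA was sequenced as 3 independent biological samples per genotype. MMP13KO mice are homozygous for loss of the collagenase gene *Mmp13* in every tissue, carry no further allele and received no treatment, so a difference may arise in the pulp or elsewhere in the animal. The study's methods describe the animals as male and name incisors, whereas the growth protocol in the labels of all 6 samples names molars for both genotypes. Levels are given as CPM, the estimated counts brought to the same library size in every sample with TMM (trimmed mean of M values) factors, always in the order of WT samples 2, 4 and 5 and MMP13KO samples 1, 2 and 6.

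Wnt proteins are secreted, lipid-bearing signals. At the cell surface they bind a Frizzled protein together with *Lrp5* or *Lrp6*, which protects β-catenin from destruction and lets it act with TCF/LEF factors on target genes, whereas binding to *Ror1*, *Ror2*, *Ryk* or *Ptk7* feeds β-catenin-independent routes that steer cell polarity and movement. R-spondins bind *Lgr4*, *Lgr5* and *Lgr6* and slow the removal of Frizzled proteins from the surface, so that a cell hears the same ligand more strongly. In teeth the pathway is known for its part in crown formation, in odontoblast differentiation and in dentin repair.

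Of these genes, 29 had at least 1 promoter window in the RefSeq set for GRCm38.p6, with 32 windows in all. The 250 bases upstream of the start are printed for *Wnt10b*, *Wnt11* and *Lgr6*, the 3 members called lower under every setting tried, and for *Fzd1*, the most abundant Frizzled. The letters CTTTGA or their reverse complement TCAAAG, the core that TCF/LEF factors recognise, were searched on both strands and are in capitals where present.
*Wnt10b* (chr15:98778151-98778400, minus strand): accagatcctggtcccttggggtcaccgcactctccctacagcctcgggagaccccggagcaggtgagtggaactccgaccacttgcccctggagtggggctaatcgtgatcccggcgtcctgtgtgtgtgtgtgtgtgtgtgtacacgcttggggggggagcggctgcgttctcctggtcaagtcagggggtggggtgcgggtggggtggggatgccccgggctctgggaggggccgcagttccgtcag
*Wnt11* (chr7:98834862-98835111, plus strand): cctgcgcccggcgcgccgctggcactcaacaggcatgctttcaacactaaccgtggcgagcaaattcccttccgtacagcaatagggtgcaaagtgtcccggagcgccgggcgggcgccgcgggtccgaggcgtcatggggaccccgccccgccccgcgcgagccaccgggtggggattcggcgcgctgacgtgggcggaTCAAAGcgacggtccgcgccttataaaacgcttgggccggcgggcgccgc
*Lgr6* (chr1:135105277-135105526, minus strand): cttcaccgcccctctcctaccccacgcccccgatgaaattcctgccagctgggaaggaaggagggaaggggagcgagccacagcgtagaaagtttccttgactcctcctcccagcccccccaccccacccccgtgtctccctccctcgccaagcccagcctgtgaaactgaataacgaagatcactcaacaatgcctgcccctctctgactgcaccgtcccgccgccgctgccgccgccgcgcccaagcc
*Fzd1* (chr5:4758217-4758466, minus strand): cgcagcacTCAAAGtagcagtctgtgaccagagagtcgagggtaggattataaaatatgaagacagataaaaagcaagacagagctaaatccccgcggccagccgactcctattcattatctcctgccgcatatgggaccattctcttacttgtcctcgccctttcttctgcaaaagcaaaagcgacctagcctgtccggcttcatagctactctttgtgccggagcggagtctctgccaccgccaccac
The letters stand 50 bases before the start in *Wnt11* and 242 bases before it in *Fzd1*, and are not in the windows of *Wnt10b* and *Lgr6*. They were present in 4 of the 32 member windows (12.5%), the others being *Ror1* and 1 of 3 starts of *Wnt5b*, and in 13.8% of the 32851 windows of all genes. A match of these letters is a description of the sequence and not a binding site.

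*Mmp13* itself stood at 36.9, 39.2 and 30.2 CPM in WT and 0.323, 1.10 and 2.34 CPM in MMP13KO, a log2 fold change of -4.96 ± 0.46 (SE, adjusted p = 7.7e-05), so the libraries followed their labels. Library totals ranged from 28442936 to 29980236 counts in WT and from 21561420 to 26547121 in MMP13KO, where 3 counts, taken as the floor, correspond to 0.0952 to 0.174 CPM. MMP13KO sample 6 stood apart, since the predicted gene *Gm10800* took 30.5% of its counts, against 6.88% in MMP13KO sample 2, and counts are given below with and without that sample. Reads over odorant and vomeronasal receptor genes, which pulp is not known to use, came to 0.00346 to 0.00406 CPM per kilobase of exon in WT and to 0.0477, 0.0586 and 0.278 in MMP13KO. Markers of odontoblasts were present in each sample (*Dspp* from 524 to 2422 CPM), but so were those of other cells. The summed level of 8 skeletal muscle genes was 50734 to 60020.1 CPM in WT and 8815 to 21755 CPM in MMP13KO, with 6 called lower. The sum of 8 odontoblast genes, most of it *Col1a1*, was 37282 to 45054 against 11349 to 14265 CPM, with 3 genes called higher (*Dspp*, *Phex* and *Ibsp*) and 2 lower (*Nes* and *Col1a1*). For 8 pulp fibroblast and mural genes, mostly *Col3a1*, the sum was 14520.2 to 22929 against 6742 to 9193 CPM, with 5 higher (*Pdgfra*, *Rgs5*, *Acta2*, *Lum* and *Dcn*) and 3 lower (*Col3a1*, *Pdgfrb* and *Thy1*). Each of these sums thus followed 1 collagen gene and not most genes of its list. Marrow blood genes summed to 441 to 732 against 899.7 to 1661 CPM, with 7 of 8 higher. Sums for endothelium (229 to 269 against 168 to 234 CPM, 1 of 6 higher and 3 lower), Schwann cells (94.4 to 333 against 93.8 to 113 CPM, 2 of 6 lower) and dental and oral epithelium (4700.2 to 5971 against 4546 to 5908 CPM, 2 of 8 lower) overlapped between genotypes, and no gene of the 7 lists was at 0 in any sample. Beside these counts, 24.3% of all genes tested were called lower and 27.3% higher in the same test, so that 2 of 8 lower is near the share of all genes. The counts are without the GC correction described below. In pooled tissue of this kind, fewer cells of a type and less RNA per cell cannot be told apart, and the part of these cells in the results below was not tested.

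MMP13-loss was accompanied by lower levels of most well-expressed members. Of the 42 genes, 40 passed the filter on low counts, and the quasi-likelihood test of edgeR called 22 of them lower and 3 higher at an adjusted p under 0.05, where p-values were adjusted by Benjamini-Hochberg over all 24534 genes tested. Among all genes tested, 24.3% were called lower and 27.3% higher. The 3 called higher were *Wnt1*, *Wnt3* and *Fzd3*, and *Wnt1* and *Wnt3* reached the filter's cutoff in MMP13KO samples alone, so that they had to be higher to be tested. Beyond a 2-fold change 14 members were lower and 3 higher, beside 9.68% and 20.4% of all genes. In 24 of the 40 tested members each MMP13KO sample lay below each WT sample, and in 4 above, beside 29.1% and 31.8% of all genes. The 4 were *Wnt1*, *Wnt2*, *Wnt3* and *Fzd3*. The first 3 reached the filter's cutoff in MMP13KO samples alone, so that the filter left them little room to lie otherwise. The median log2 fold change was -0.57 over the tested members and 0.10 over all genes tested. Without MMP13KO sample 6 the counts were 23 lower and 2 higher, and the same 22 genes were among the 23.

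GC content moved with these differences. Over all genes tested, the log2 fold change fell as the GC content of a gene's longest annotated transcript rose (Spearman's rho = -0.515, across genes, which share the same 6 libraries), and the tested members had a median GC content of 54.3% against 49.1% for all genes. When each library was corrected for its trend with GC content, 6 members were called lower (*Wnt5a*, *Wnt10b*, *Wnt11*, *Fzd4*, *Ryk* and *Lgr6*) and the same 3 higher, beside 9.49% and 26.8% of all genes, and the median over the members became -0.056, against 0.33 over all genes tested. The corrected values are therefore given with each tested member below. Without the correction, *Wnt5a*, *Fzd4* and *Ryk* were not called lower when libraries were scaled by their total counts alone.

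**Figure D1:**
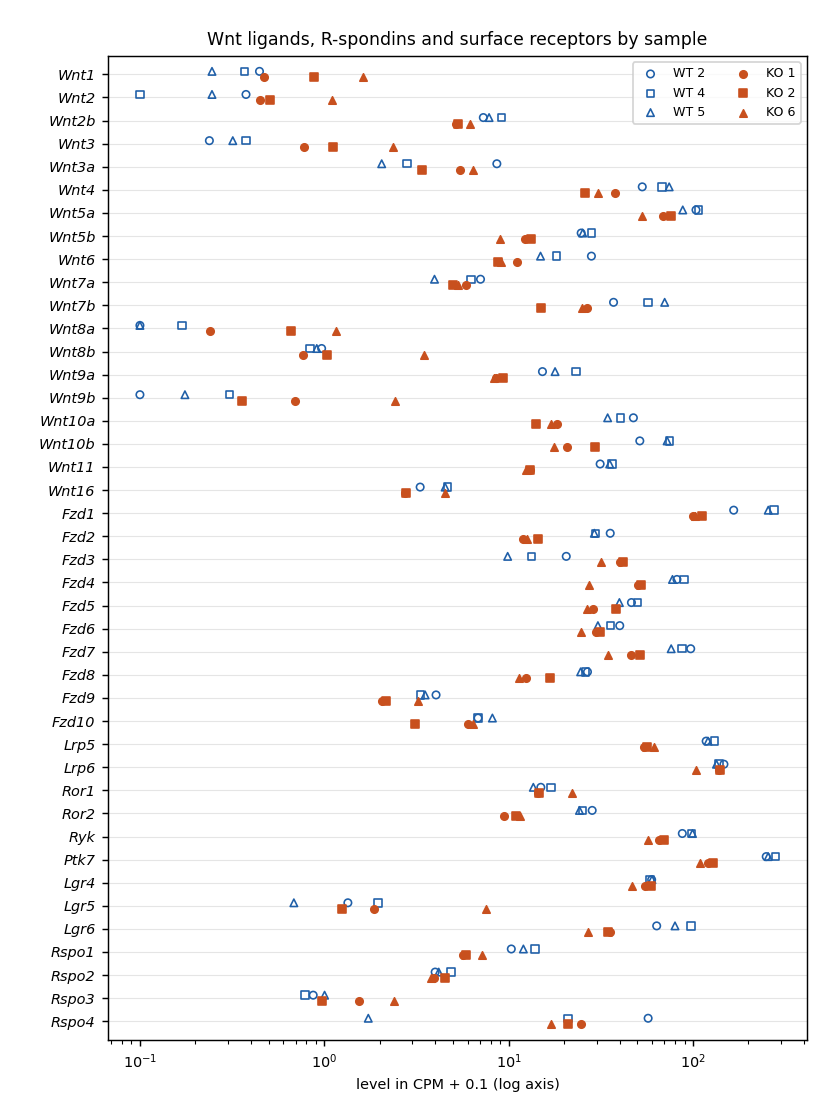
Level of each of the 42 members in each sample, as CPM + 0.1 on a log axis. Open blue symbols are the 3 WT samples and filled orange symbols the 3 MMP13KO samples, and in 24 of the 40 tested members the orange symbols all lie left of the blue ones.

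Among the ligands, 10 of the 17 tested fell in MMP13KO pulp and 5 did not pass the test, while *Wnt1* and *Wnt3*, which could be tested only because they were higher in MMP13KO, were called higher. Of all genes tested, 24.3% were called lower and 27.3% higher. With the GC correction 3 ligands were lower and 2 higher, beside 9.49% and 26.8% of all genes. The median log2 fold change of the ligands was -0.60, and -0.024 with the GC correction, beside 0.10 and 0.33 over all genes tested. The most abundant ligands per kilobase of exon were among those that fell. In WT these were *Wnt10b* at 19.4 ± 3.73 CPM per kilobase (SD, n = 3), *Wnt10a* at 16.5 ± 2.65, *Wnt4* at 15.5 ± 2.59, *Wnt5a* at 12.7 ± 1.32 and *Wnt7b* at 11.2 ± 3.40, and neighbours in that order did not differ beyond their spread. In MMP13KO the order began with *Wnt5a* at 8.40 ± 1.52, followed by *Wnt4* at 7.50 ± 1.42, *Wnt10a* at 6.62 ± 0.871 and *Wnt10b* at 6.61 ± 1.80.

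*Wnt10b*, a ligand known for promoting bone formation over fat, was measured at 51.4, 74.3 and 72.3 CPM in WT and 20.6, 29.3 and 17.5 CPM in MMP13KO. The genotypes did not overlap and the level was 2.93-fold lower in MMP13KO, with a log2 fold change of -1.55 ± 0.22 (SE, adjusted p = 3.8e-04). After the GC correction it was -0.99 (adjusted p = 0.0036). *Wnt10a*, whose human counterpart is mutated in inherited tooth agenesis and which odontoblasts express, stood at 47.4, 40.5 and 34.3 CPM in WT and 18.2, 14.0 and 16.8 CPM in MMP13KO. Its difference was -1.32 ± 0.17 (SE, adjusted p = 2.5e-04), again without overlap, but -0.10 (adjusted p = 0.69) after the GC correction, and its longest transcript has the highest GC content of the tested members (63.8%).

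*Wnt6*, which lies 6.19 kb from *Wnt10a* on chromosome 1 with no coding gene between them, was at 28.0, 18.1 and 14.8 CPM in WT and 11.0, 8.63 and 9.05 CPM in MMP13KO. Both genes of this pair fell, *Wnt6* by 1.09 ± 0.23 (SE, adjusted p = 0.0035) on the log2 scale, though the corrected value was 0.11 (adjusted p = 0.76). *Wnt1*, 11.7 kb from *Wnt10b* on chromosome 15, is scarce and is described below with the limits of its call. In *Wnt3a* and *Wnt9a*, 16.2 kb apart on chromosome 11, *Wnt9a* fell and *Wnt3a* did not pass the test, and *Wnt9b*, 24.3 kb from *Wnt3* on the same chromosome, was too low to be tested.

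*Wnt4*, a ligand of kidney and gonad development that is also made by epithelia, was at 53.0, 67.8 and 74.2 CPM in WT and 37.8, 26.0 and 30.6 CPM in MMP13KO, a difference of -1.05 ± 0.18 (SE, adjusted p = 0.0013). *Wnt7b*, which drives bone formation and epithelial growth, was at 37.0, 56.8 and 70.1 CPM in WT and 26.5, 14.9 and 25.0 CPM in MMP13KO, a difference of -1.31 ± 0.27 (SE, adjusted p = 0.0028). Neither gene overlapped between genotypes, and the corrected values were -0.15 (adjusted p = 0.5) and -0.15 (adjusted p = 0.7). Both ligands kept the order of the keratin genes in the MMP13KO samples, and in WT each was lowest in sample 2. *Krt14*, a keratin of basal epithelial cells, stood at 1321, 2932 and 2658 CPM in WT and 1079.5, 669 and 999 CPM in MMP13KO, and *Krt5* at 508, 966 and 880.0 CPM in WT and 382, 237 and 328 CPM in MMP13KO. Both keratins were themselves called lower, by 1.33 ± 0.33 (SE, adjusted p = 0.0074) and 1.31 ± 0.28 (SE, adjusted p = 0.0035) on the log2 scale, but not with the GC correction, at -0.30 (adjusted p = 0.45) and -0.32 (adjusted p = 0.34). They were the 2 genes called lower of the 8 on the dental and oral epithelium list, and the other epithelial adhesion and identity genes on it did not pass the test, *Cdh1* with -0.38 (adjusted p = 0.18), *Trp63* with -0.18 (adjusted p = 0.4) and *Epcam* with 0.28 (adjusted p = 0.24). This comparison was chosen after the values were seen, and the part of epithelial RNA in the ligand levels was not tested.

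The β-catenin-independent ligands fell as well. *Wnt5a*, the main ligand of *Ror2*, was at 104, 107 and 87.9 CPM in WT and 68.9, 75.7 and 52.6 CPM in MMP13KO. Its change was -0.60 ± 0.17 (SE, adjusted p = 0.015), and -0.51 (adjusted p = 0.0092) after the GC correction, but without WT sample 4 the adjusted p was 0.0503. *Wnt11*, which guides cell movement in the embryo, had the smallest adjusted p of all members. It was at 31.3, 36.2 and 35.2 CPM in WT and 13.0, 13.0 and 12.3 CPM in MMP13KO, 2.68-fold lower, with a log2 fold change of -1.42 ± 0.14 (SE, adjusted p = 8.3e-05) and of -0.48 (adjusted p = 0.0098) after the GC correction. *Wnt5b*, a close relative of *Wnt5a*, was at 24.6, 28.1 and 25.1 CPM in WT and 12.1, 13.2 and 8.93 CPM in MMP13KO, a difference of -1.18 ± 0.17 (SE, adjusted p = 4.4e-04) that became -0.024 (adjusted p = 0.89) after the correction. Exons of *Wnt5a*, *Wnt7b* and *Wnt11*, and those of *Fzd5*, *Fzd6* and *Rspo3*, overlap annotated genes on the opposite strand, and since the counting is not stated to use strand, reads of those genes cannot be told apart from theirs.

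*Wnt9a*, a ligand of joint formation, was at 15.2, 23.1 and 17.8 CPM in WT and 8.44, 9.17 and 8.27 CPM in MMP13KO, a difference of -1.11 ± 0.18 (SE, adjusted p = 8.2e-04) and of -0.17 (adjusted p = 0.41) after the GC correction. *Wnt2b* was lower in level and fell least of the 10, at 7.19, 9.04 and 7.73 CPM in WT and 5.07, 5.20 and 6.11 CPM in MMP13KO, with -0.55 ± 0.18 (SE, adjusted p = 0.025). Its call did not hold without WT sample 4, MMP13KO sample 1 or MMP13KO sample 2 (adjusted p of 0.076, 0.063 and 0.051), and its corrected value was positive at 0.40 (adjusted p = 0.14).

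The remaining ligands were scarce. *Wnt3*, needed for the body axis of the embryo, was called higher at 0.138, 0.275 and 0.219 CPM in WT and 0.681, 1.01 and 2.26 CPM in MMP13KO, with 2.58 ± 0.62 (SE, adjusted p = 0.0062), or 2.26 (adjusted p = 0.0095) once the receptor-gene rate was subtracted and 3.28 (adjusted p = 0.0092) with the GC correction. *Wnt1*, the founding member of the family, was called higher at 0.345, 0.269 and 0.146 CPM in WT and 0.371, 0.778 and 1.52 CPM in MMP13KO, with 1.74 ± 0.65 (SE, adjusted p = 0.047), and 2.97 (adjusted p = 0.016) with the GC correction. That call in the uncorrected test held in 1 of the 6 fits that left out a sample, with 1.15 (adjusted p = 0.11) without MMP13KO sample 6, and *Wnt1* no longer passed the filter after subtraction. *Wnt1*, *Wnt2* and *Wnt3* passed the filter through the MMP13KO samples alone, so these genes had to differ in order to be tested. Per kilobase, *Wnt3* in MMP13KO was 4.64, 5.63 and 2.65 times the receptor-gene rate of the same sample, and *Wnt1* 3.27, 5.58 and 2.30 times, whereas both were 11.1 to 35.8 times that rate in WT.

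*Wnt2* at 0.276, 0 and 0.146 CPM in WT and 0.349, 0.409 and 1.003 CPM in MMP13KO and *Wnt8b* at 0.867, 0.737 and 0.810 CPM in WT and 0.666, 0.936 and 3.39 CPM in MMP13KO did not pass the test, with 1.96 ± 0.90 (SE, adjusted p = 0.094) and 1.02 ± 0.59 (SE, adjusted p = 0.17), nor with the GC correction, at 2.58 (adjusted p = 0.079) and 1.77 (adjusted p = 0.083). *Wnt8a* (0 to 0.0688 CPM in WT, 0.139 to 1.05 in MMP13KO) and *Wnt9b* (0 to 0.206 and 0.258 to 2.32) were at 0 in 2 and 1 of the WT samples and failed the filter, and no fold is given for them. In both, the highest value was that of MMP13KO sample 6. *Wnt7a* at 6.94, 6.15 and 3.86 CPM in WT and 5.79, 4.91 and 5.23 CPM in MMP13KO and *Wnt16*, a ligand of cortical bone, at 3.21, 4.57 and 4.42 CPM in WT and 2.64, 2.67 and 4.43 CPM in MMP13KO overlapped between genotypes and did not pass, with -0.093 ± 0.23 (SE, adjusted p = 0.76) and -0.34 ± 0.27 (SE, adjusted p = 0.32). The GC correction moved *Wnt7a* to 0.75 (adjusted p = 0.054) and *Wnt16* to -0.88 (adjusted p = 0.11), and *Wnt7a* also lay above 0 when scaled by upper quartiles (0.11) or by library totals (0.023).

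*Rspo1* was the only R-spondin to pass the test. It was at 10.2, 13.8 and 11.9 CPM in WT and 5.54, 5.81 and 7.03 CPM in MMP13KO, without overlap, a difference of -0.97 ± 0.18 (SE, adjusted p = 0.0016), but 0.19 (adjusted p = 0.45) after the GC correction. *Rspo2*, the R-spondin of limb growth, differed little between samples at 3.89, 4.78 and 4.08 CPM in WT and 3.85, 4.44 and 3.71 CPM in MMP13KO, with -0.088 ± 0.20 (SE, adjusted p = 0.74) and a corrected value of 0.057 (adjusted p = 0.85). *Rspo3*, which acts on blood vessels, was scarce at 0.771, 0.684 and 0.904 CPM in WT and 1.43, 0.869 and 2.29 CPM in MMP13KO, with 0.94 ± 0.44 (SE, adjusted p = 0.096) and a corrected value of 0.82 (adjusted p = 0.25).

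*Rspo4*, known for its part in nail formation, varied most between WT animals. It was at 57.0, 20.9 and 1.63 CPM in WT and 24.7, 20.9 and 16.8 CPM in MMP13KO, so that WT sample 2 was 34.9 times WT sample 5, and only 13 of the 13729 genes with a fitted mean log2 CPM above 2 (0.0947%) had a WT spread at least as wide. The MMP13KO samples lay close together inside the WT range, and the difference was -0.35 ± 0.78 (SE, adjusted p = 0.73), or 0.48 (adjusted p = 0.69) with the GC correction. Its sign turned with single samples, being 0.81 (adjusted p = 0.35) without WT sample 2 and -0.97 (adjusted p = 0.041) without WT sample 5. *Wnt3a*, a canonical ligand, followed the same order in WT at 8.53, 2.71 and 1.95 CPM in WT and 5.38, 3.30 and 6.28 CPM in MMP13KO, with 0.17 ± 0.49 (SE, adjusted p = 0.79), or 1.13 (adjusted p = 0.15) with the GC correction, and 1.01 (adjusted p = 0.026) without WT sample 2. Of the 3 enamel matrix genes on the epithelium list, *Amelx* and *Enam* followed that order in WT and *Ambn* did not. *Amelx*, the amelogenin gene, was at 1551, 405 and 140.4 CPM in WT and 1072, 1006 and 849 CPM in MMP13KO, and *Enam*, the enamelin gene, at 353, 83.9 and 27.0 CPM in WT and 523, 461 and 338 CPM in MMP13KO. *Ambn*, the ameloblastin gene, was at 2109.8, 778 and 812 CPM in WT and 2689.6, 2573 and 1898 CPM in MMP13KO, highest of the WT samples in sample 2 but lowest in sample 4. Among the MMP13KO samples, sample 6 was lowest for *Rspo4* and the 3 enamel matrix genes but highest for *Wnt3a*. The likeness in WT was noticed after the values were seen, and the part of enamel-organ RNA in the levels of *Rspo4* and *Wnt3a* was not tested.

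**Figure D2:**
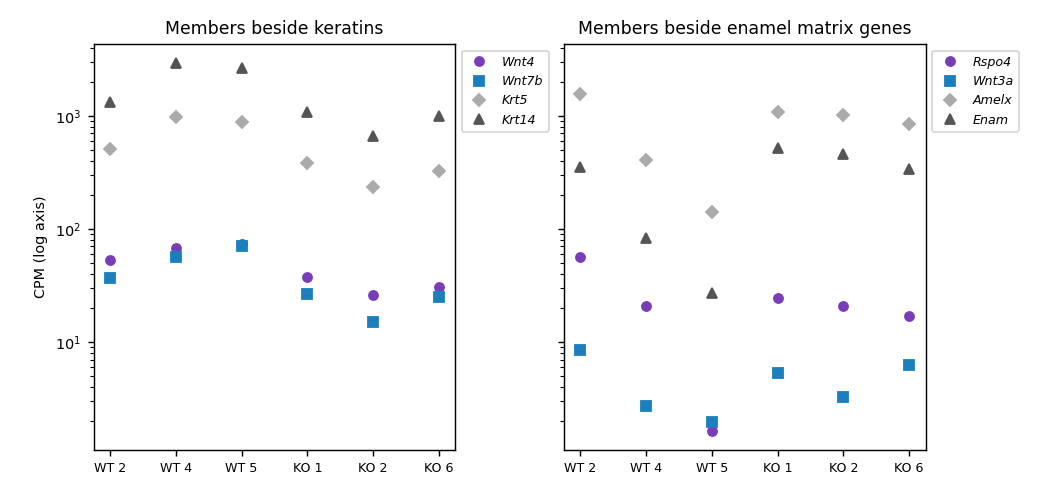
CPM on a log axis in each of the 6 samples, for *Wnt4* and *Wnt7b* beside the keratins *Krt5* and *Krt14* (left) and for *Rspo4* and *Wnt3a* beside the enamel matrix genes *Amelx* and *Enam* (right). On the right, among the 3 WT samples, all 4 genes shown are highest in sample 2 and lowest in sample 5, with *Rspo4* running from 57.0 down to 1.63 CPM.

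Of the 10 Frizzled receptors, 6 fell in MMP13KO pulp, *Fzd3* rose and 3 did not pass the test, beside 24.3% lower and 27.3% higher of all genes tested. With the GC correction 1 was called lower and 1 higher, beside 9.49% and 26.8% of all genes. *Fzd1* led the family in both genotypes at 55.4 ± 13.8 CPM per kilobase in WT and 24.9 ± 1.49 in MMP13KO (SD, n = 3), ahead of *Fzd7* at 19.1 ± 2.32 and 9.72 ± 1.97. In CPM, *Fzd1* was at 166, 275 and 256 CPM in WT and 99.8, 112 and 102 CPM in MMP13KO, a difference of -1.15 ± 0.20 (SE, adjusted p = 0.0013). Its relatives *Fzd2* and *Fzd7*, which with it form a subgroup of close sequence, fell together with it. *Fzd2* was at 35.5, 29.6 and 29.1 CPM in WT and 11.8, 14.3 and 12.5 CPM in MMP13KO, with -1.29 ± 0.15 (SE, adjusted p = 1.7e-04), and *Fzd7* at 97.1, 87.1 and 76.1 CPM in WT and 46.1, 51.8 and 34.3 CPM in MMP13KO, with -0.98 ± 0.18 (SE, adjusted p = 0.0016). All 3 genes lost the call under the GC correction, at -0.26 (adjusted p = 0.25), -0.34 (adjusted p = 0.12) and -0.27 (adjusted p = 0.15).

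*Fzd4*, the receptor of Norrin in vessel growth, was at 81.8, 89.1 and 77.3 CPM in WT and 50.2, 52.1 and 27.0 CPM in MMP13KO, with -0.94 ± 0.23 (SE, adjusted p = 0.0066). It was the only Frizzled called lower after the GC correction, at -0.84 (adjusted p = 0.0045), and its lowest value was in MMP13KO sample 6. *Fzd8* at 26.7, 26.1 and 24.5 CPM in WT and 12.4, 16.7 and 11.3 CPM in MMP13KO had a difference of -0.93 ± 0.17 (SE, adjusted p = 0.0014), and -0.40 (adjusted p = 0.051) when corrected. *Fzd5*, a receptor that intestinal Paneth cells need, was at 46.3, 50.02 and 39.8 CPM in WT and 28.4, 38.3 and 26.5 CPM in MMP13KO, with -0.54 ± 0.17 (SE, adjusted p = 0.023). The call of *Fzd5* did not hold without WT sample 4 or MMP13KO sample 1 (adjusted p of 0.072 and 0.055), its corrected value was 0.069 (adjusted p = 0.72), and its exons overlap a gene on the opposite strand.

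*Fzd3*, a receptor of axon guidance and cell polarity, ran against the family. It was at 20.4, 13.2 and 9.78 CPM in WT and 39.9, 41.9 and 31.7 CPM in MMP13KO, 2.61-fold higher in MMP13KO with no overlap, at 1.39 ± 0.25 (SE, adjusted p = 0.0014). The rise was called under every setting tried, among them the GC correction, which took it to 0.79 (adjusted p = 0.021), and the fit without MMP13KO sample 6, at 1.50 (adjusted p = 0.0021). Its longest transcript has the lowest GC content of the tested members (40.3%). In MMP13KO it stood 65.3, 55.8 and 8.92 times above the receptor-gene rate per kilobase.

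*Fzd6*, a polarity receptor of hair and skin, was at 40.0, 35.5 and 30.4 CPM in WT and 29.6, 31.1 and 24.6 CPM in MMP13KO and did not pass the test, with -0.31 ± 0.16 (SE, adjusted p = 0.12) and a corrected value of -0.16 (adjusted p = 0.34). *Fzd9* at 3.94, 3.22 and 3.42 CPM in WT and 1.97, 2.06 and 3.13 CPM in MMP13KO and *Fzd10* at 6.72, 6.74 and 8.07 CPM in WT and 5.96, 2.99 and 6.27 CPM in MMP13KO were scarce and had no overlap between genotypes, yet missed the threshold with -0.58 ± 0.26 (SE, adjusted p = 0.084) and -0.51 ± 0.27 (SE, adjusted p = 0.14). With the GC correction both turned positive, to 0.66 (adjusted p = 0.13) and 0.45 (adjusted p = 0.28). Without MMP13KO sample 6, *Fzd9* passed at -0.80 (adjusted p = 0.019).

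The co-receptors parted. *Lrp5*, whose loss lowers bone mass, fell from 118, 130.4 and 121 CPM in WT to 54.4, 56.0 and 61.6 CPM in MMP13KO without overlap, with -1.10 ± 0.14 (SE, adjusted p = 2.3e-04). *Lrp6*, the broader of the pair, was at 147, 138 and 134 CPM in WT and 138, 140.3 and 104 CPM in MMP13KO, with -0.13 ± 0.16 (SE, adjusted p = 0.52), and the genotypes overlapped. The WT levels per kilobase were 12.6 ± 0.681 for *Lrp5* and 10.2 ± 0.491 for *Lrp6*, and in MMP13KO 5.89 ± 0.390 and 9.31 ± 1.48, so that the order of the pair was exchanged. After the GC correction their differences were -0.29 (adjusted p = 0.14) and -0.12 (adjusted p = 0.3), and the longest transcript of *Lrp5* is richer in GC (54.7% against 46.0%).

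*Ptk7*, a pseudokinase receptor of planar cell polarity, was at 249.6, 279 and 256 CPM in WT and 120.3, 128 and 109 CPM in MMP13KO. Per kilobase it was the most abundant of the kinase-like receptors, at 48.6 ± 2.93 CPM per kilobase in WT and 22.1 ± 1.80 in MMP13KO (SD, n = 3), ahead of *Ryk* at 20.9 ± 1.43 and 14.1 ± 1.41. It was 2.20-fold lower, with -1.14 ± 0.16 (SE, adjusted p = 3.4e-04), and -0.02 (adjusted p = 0.88) after the GC correction. *Ror2*, the *Wnt5a* receptor of cartilage and bone, was at 28.3, 25.0 and 24.1 CPM in WT and 9.32, 10.8 and 11.4 CPM in MMP13KO, with -1.30 ± 0.15 (SE, adjusted p = 1.6e-04) and a corrected value of -0.18 (adjusted p = 0.41). Its relative *Ror1* was at 14.9, 16.8 and 13.5 CPM in WT and 14.3, 14.6 and 22.0 CPM in MMP13KO and did not pass the test, with 0.16 ± 0.19 (SE, adjusted p = 0.5) and a corrected value of 0.34 (adjusted p = 0.34). *Ryk*, a pseudokinase that binds Wnt proteins, was at 87.4, 98.0 and 99.3 CPM in WT and 65.1, 69.8 and 57.2 CPM in MMP13KO, a smaller difference of -0.57 ± 0.14 (SE, adjusted p = 0.0082) that was called after the correction too, at -0.37 (adjusted p = 0.022).

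Among the R-spondin receptors *Lgr6* fell and *Lgr4* did not pass the test. *Lgr6*, a marker of epithelial stem cells in skin, was at 63.5, 97.4 and 79.8 CPM in WT and 35.5, 34.5 and 26.9 CPM in MMP13KO, 2.48-fold lower, with -1.31 ± 0.19 (SE, adjusted p = 4.3e-04) and a corrected value of -0.70 (adjusted p = 0.0055). *Lgr4*, the widely expressed member, was at 59.6, 58.4 and 59.8 CPM in WT and 55.1, 58.9 and 46.6 CPM in MMP13KO, lowest in MMP13KO sample 6, with -0.15 ± 0.14 (SE, adjusted p = 0.4) and a corrected value of -0.088 (adjusted p = 0.45). *Lgr6* made up 53.1 ± 5.50 percent of the summed level of the 3 genes per kilobase in WT and 33.2 ± 1.99 percent in MMP13KO (SD, n = 3), without overlap, and *Lgr4* 46.4 ± 5.55 and 64.2 ± 1.58 percent. *Lgr5*, a marker of intestinal stem cells, was scarce at 1.24, 1.86 and 0.584 CPM in WT and 1.75, 1.14 and 7.42 CPM in MMP13KO, and its difference of 1.44 ± 0.67 (SE, adjusted p = 0.098) shrank to 0.23 (adjusted p = 0.71) without MMP13KO sample 6, and was 1.46 (adjusted p = 0.2) with the GC correction.

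**Figure D3:**
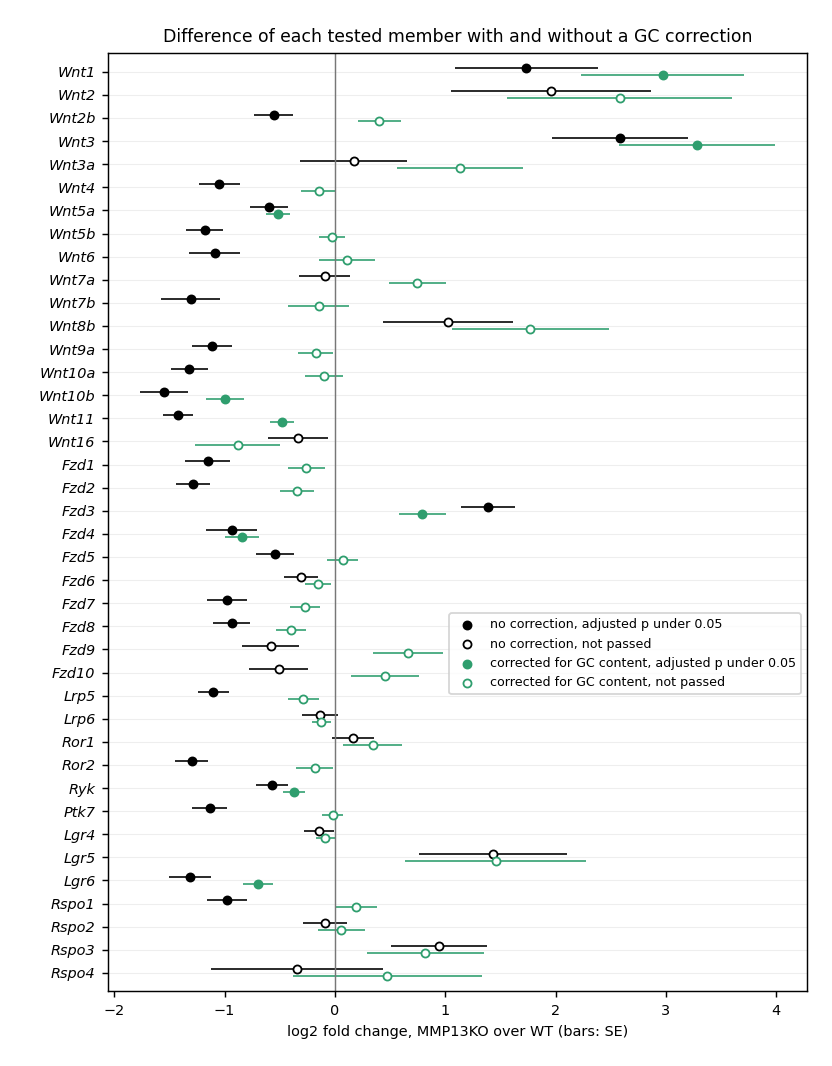
Log2 fold change of MMP13KO over WT with its SE for the 40 tested members, without (black) and with (green) the GC correction. Filled points passed an adjusted p of 0.05, which 22 lower members did without the correction and 6 with it.

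In CPM without the GC correction, both large families were lower in sum in MMP13KO pulp, and their median log2 fold changes of -0.60 for the ligands and -0.76 for the Frizzled genes became -0.024 and -0.21 with it. The median over all genes tested was 0.33 with the correction. Summed per kilobase, the 19 ligands came to 115 ± 5.43 CPM per kilobase in WT and 55.6 ± 2.45 in MMP13KO, and the 10 Frizzled genes to 118 ± 10.9 and 62.8 ± 6.77 (SD, n = 3), without overlap in either. With 3 samples against 3 an exact two-sided permutation test cannot give a p below 0.1, so these sums and the shares are described without a test. *Wnt10b* held 16.8 ± 2.72 percent of the ligand sum in WT and 11.9 ± 3.50 percent in MMP13KO, and the samples overlapped. *Wnt5a* held 11.1 ± 1.10 and 15.1 ± 2.77 percent, and each MMP13KO sample was above each WT sample. *Wnt11* held 7.20 ± 0.321 and 5.56 ± 0.235 percent, with each MMP13KO sample below. Within the Frizzled genes, *Fzd1* held 46.3 ± 8.29 and 39.9 ± 3.18 percent with overlap, while *Fzd3* went from 0.976 ± 0.445 to 4.70 ± 0.272 percent and *Fzd6* from 6.24 ± 1.27 to 9.41 ± 0.349 percent, both without overlap.

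**Figure D4:**
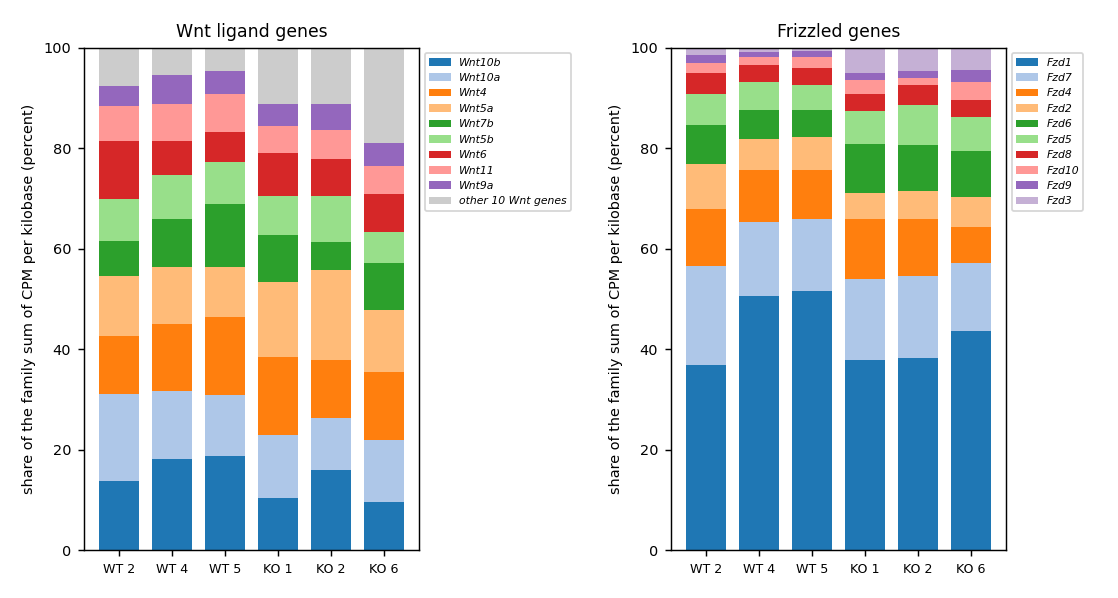
Share in percent of each gene in the summed CPM per kilobase of exon of the Wnt ligands (left) and the Frizzled genes (right), in each of the 6 samples. *Fzd1* forms the largest block of the Frizzled genes in each sample, and the topmost block, *Fzd3*, averages 0.976 percent in WT and 4.70 percent in MMP13KO.

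The relation to GC content was found within the members too. Over the 40 tested members Spearman's rho between GC content and log2 fold change was -0.479, as a description across genes that share 6 libraries. The 22 members called lower had a median GC content of 56.1% and the 15 that did not pass 47.4%. After the correction *Wnt10b*, *Fzd4* and *Lgr6* had the lowest values among the members called lower, whereas *Wnt10a*, *Wnt5b*, *Wnt6* and *Ptk7* ended near 0. The median of 0.33 over all genes tested also covers genes scarcer than those the curve was fitted on. The correction takes out the trend of all genes with GC content, whatever gave rise to it, and the origin of the trend was not tested.

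**Figure D5:**
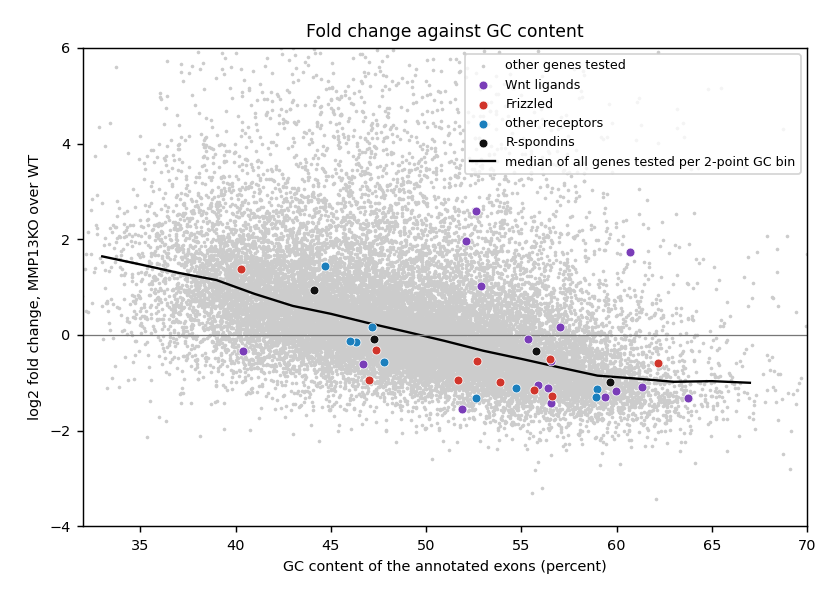
Log2 fold change of MMP13KO over WT against the GC content of the exons in each gene's longest annotated transcript, for the genes tested (grey, with 537 of 24492 outside the axes) and the members by role (colours). The black line is the median of all genes in bins of GC content, and most members in the GC-rich part lie near or below it.

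The rest of the pathway was read from 4 lists of 77 further genes, of which 75 were tested, 40 called lower and 7 higher, with a median log2 fold change of -0.47, beside 24.3% lower and 27.3% higher of all genes tested. With the GC correction 14 were lower and 10 higher with a median of -0.068, beside 9.49% and 26.8% of all genes and a median of 0.33 over all genes tested. Among 22 genes of Wnt secretion and antagonism (21 tested), 8 were lower and 3 higher, but 2 lower and 5 higher with the GC correction, and the median turned from -0.21 to 0.17 (and to 0.013 with upper-quartile factors). The medians over all genes tested, which also cover scarcer genes, were 0.33 with the GC correction and 0.32 with upper-quartile factors. *Porcn*, the enzyme that attaches the lipid to Wnt proteins, fell from 23.8, 26.8 and 27.6 to 10.7, 13.0 and 13.1 CPM, with -1.09 ± 0.15 (SE, adjusted p = 3.1e-04), and -0.25 (adjusted p = 0.25) when corrected. *Wls*, the carrier that takes Wnt proteins to the surface, rose instead, from 83.4, 60.3 and 64.9 to 133, 145 and 103 CPM, with 0.87 ± 0.19 (SE, adjusted p = 0.0034) and 0.45 (adjusted p = 0.012) when corrected. The antagonist *Dkk1*, which blocks *Lrp5* and *Lrp6*, also rose, by 1.05 ± 0.23 (SE, adjusted p = 0.004) on the log2 scale, while its partner receptor *Kremen1* fell by 1.21 ± 0.16 (SE, adjusted p = 2.6e-04) and the secreted antagonist *Sfrp1* by 1.09 ± 0.20 (SE, adjusted p = 0.0015).

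Of 30 genes of the intracellular canonical route, all tested, 19 were lower and 0 higher at an adjusted p under 0.05 in edgeR, beside 24.3% and 27.3% of all genes. At an unadjusted p under 0.05, 0 genes of the list were higher in edgeR as well. By limma 0 genes were called higher. *Ctnnb1* alone was called higher by DESeq2, after background subtraction and with at least 10 counts required in every sample. It was also the 1 gene higher by the study's q-values when the 2-fold limit was left out. Its unadjusted p in that test was not under 0.05, however, which the study required as well. *Ctnnb1* and *Tnks* were called higher with upper-quartile factors, without MMP13KO sample 6 and with the GC correction. With that correction 9 genes of the list were lower, beside 9.49% lower and 26.8% higher of all genes. *Bcl9l*, a co-activator of β-catenin, led with -1.86 ± 0.15 (SE, adjusted p = 4.9e-05), at 106, 121 and 93.4 CPM in WT and 30.4, 31.1 and 26.7 CPM in MMP13KO. *Dvl1* and *Dvl3*, adaptors that relay the signal from Frizzled proteins, had -1.54 ± 0.17 (SE, adjusted p = 1.5e-04) and -1.33 ± 0.13 (SE, adjusted p = 1.0e-04), and all 3 genes were also called lower after the GC correction. The others beyond 2-fold were *Gsk3a*, *Csnk1e*, *Axin2*, *Tle3*, *Bcl9*, *Pygo2*, *Tcf7l1*, *Apc2* and *Tle2*, with log2 fold changes from -1.34 for *Gsk3a* to -1.01 for *Tle3*. *Ctnnb1*, the β-catenin gene, did not pass the test at 370.4, 339.7 and 377 CPM in WT and 506, 516 and 396 CPM in MMP13KO, with 0.38 ± 0.18 (SE, adjusted p = 0.1), and was called higher with the GC correction, at 0.80 (adjusted p = 0.0011).

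Of 15 target genes (14 tested), 7 were lower and 3 higher, beside 24.3% and 27.3% of all genes. With the GC correction 2 were lower and 3 higher, beside 9.49% and 26.8% of all genes. The median turned from -0.45 to 0.16, beside 0.33 over all genes tested, scarcer ones included, with the correction. *Nkd1* at -1.37 ± 0.16 (SE, adjusted p = 1.8e-04) and *Axin2* at -1.28 ± 0.18 (SE, adjusted p = 4.1e-04), both feedback inhibitors, fell beyond 2-fold, and their corrected values were -0.73 (adjusted p = 0.002) and -0.51 (adjusted p = 0.049). *Wisp1*, a matrix-associated protein, was higher at 1.05 ± 0.20 (SE, adjusted p = 0.0017), and *Dkk1*, counted above as an antagonist, is also a target. Of 18 genes of planar polarity and β-catenin-independent signalling, all tested, 10 were lower and 2 higher, and 2 lower and 1 higher with the GC correction. The shares of all genes beside these are those given for the target genes. *Dact3*, a binder of Dishevelled proteins, went from 28.6, 27.6 and 24.6 to 6.27, 5.91 and 6.58 CPM, with -2.10 ± 0.15 (SE, adjusted p = 2.4e-05) and -0.96 (adjusted p = 0.0023) when corrected. *Celsr2*, *Dact1* and *Scrib* also fell beyond 2-fold, at -1.23, -1.14 and -1.11 on the log2 scale, and none of these 3 was called after the correction. *Celsr3*, a polarity cadherin known to act with *Fzd3* in axon tracts, was higher at 2.94, 3.27 and 3.38 CPM in WT and 4.46, 4.67 and 9.30 CPM in MMP13KO, with 0.93 ± 0.29 (SE, adjusted p = 0.024), its highest value being in MMP13KO sample 6, without which it was 0.51 (adjusted p = 0.062).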

How the data were processed

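RNA was sequenced from dental pulp of 3 WT and 3 MMP13KO mice, and groups follow the genotype that the labels give each sample. The authors deposited estimated counts for 53342 Ensembl genes, obtained from aligned reads in Strand NGS, and these are not whole numbers. The authors also deposited log2 values, and these were recomputed from the counts to within 0.01 with median-of-ratios factors, values under 1 set to 1 and the median of a gene over the 6 samples subtracted. The submitters' processing notes name mm10 and DESeq, and the annotation release and the use of strand are not given in the sources used here.

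Rounded counts went into edgeR 4.0.16 under R 4.3.3 (quasi-likelihood test, TMM factors, the edgeR filter by genotype with a minimum count of 10, no covariates). The test compares the spread between 3 samples per genotype, which includes counting error, and that error weighs most for the scarce genes. The SE of a log2 fold change is its absolute value divided by the square root of the F statistic of that test. CPM were computed from the unrounded counts. Exon length, GC content and position came from GENCODE M21 (GRCm38), matched by Ensembl identifier for 99.8% of genes. Exon length is that of all annotated exons of a gene, and GC content that of its longest transcript. Levels were compared between genes only per kilobase of exon. The GC correction fitted a loess curve (span 0.4) of each library against GC content over genes with a mean log2 CPM above 3 and used it as an offset. The receptor-gene rate was taken over 1409 odorant and vomeronasal receptor genes. Alternatives were RLE, upper-quartile and total-count scaling, other filters, DESeq2 1.42.0, limma 3.58.1 on the deposited log2 values, the study's gene-by-gene test with q-values and a 2-fold limit, and each sample left out. The study's further limit of an unadjusted p under 0.05 was not applied in its alternative. Several of the fits and the GC correction were also run on simulated counts in which few genes changed. Many genes differ in these data, so that run cannot show how well the correction works here. GC correction without MMP13KO sample 6 and GC correction with background subtraction were chosen after seeing the data.

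All 42 members are named, together with *Mmp13*, the marker genes, and in each pathway list the called gene with the smallest adjusted p in each direction and any gene called beyond 2-fold. *Ctnnb1* and *Tnks* were added after their values were seen. The members and the lists were chosen with earlier results of these data known. Promoter windows are from RefSeq (GRCm38.p6).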

Additional observations from a re-analysis of the deposited data

How the results depend on the processing

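Against 22 members called lower, the GC correction gave 6, the GC correction without MMP13KO sample 6 gave 8, the GC correction with background subtraction gave 8, total counts alone gave 17, and a limit of 2-fold gave 14. Members called higher, 3 in the test reported, were 5 with total counts alone and 5 with no filter on low counts. Other pathway genes called lower, 40 in that test, were 23 with total counts alone, 22 by the study's procedure, 14 with the GC correction, 14 with it and without MMP13KO sample 6, 13 with it and background subtraction, and 20 beyond 2-fold. Other pathway genes called higher, 7 in that test, were 3 by limma, 1 by the study's procedure and 2 beyond 2-fold. The members' median of -0.57 became -0.36 with upper-quartile factors, -0.056 with the GC correction, -0.069 with it and without MMP13KO sample 6, and -0.11 with it and background subtraction.

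Leaving out each sample in turn gave 19 to 23 members called lower, 2 to 5 called higher (2 without MMP13KO sample 6, 5 without MMP13KO sample 1, where *Lgr5* and *Wnt8a* were added) and 3 to 8 other pathway genes called higher (3 without WT sample 5, 8 without MMP13KO sample 6). Values that turned positive under the GC correction, under it without MMP13KO sample 6 and under it with background subtraction were 0.40, 0.22 and 0.27 for *Wnt2b*, 0.11, 0.078 and 0.086 for *Wnt6*, 0.069, 0.078 and 0.052 for *Fzd5*, and 0.19, 0.00062 and 0.16 for *Rspo1*, all called lower in the test reported, and, among members it did not call, 0.75, 0.66 and 0.65 for *Wnt7a*, 0.66, 0.35 and 0.49 for *Fzd9*, 0.45, 0.17 and 0.35 for *Fzd10*, and 0.48, 0.53 and 0.47 for *Rspo4*. *Rspo2* turned to 0.057 under the first of these and *Wnt5b* to 0.053 under the second. The cause was not tested. Upper-quartile factors, total counts alone and the GC correction raised the median over all genes tested by 0.21, 0.11 and 0.23 on the log2 scale. The direction of *Mmp13* and its call were kept under the alternatives run. No paired analysis was possible because the genotypes share fewer than 2 replicate numbers. The members with fewer than 50 counts in each WT sample (*Wnt1*, *Wnt2*, *Wnt3*, *Wnt8a*, *Wnt8b*, *Wnt9b* and *Rspo3*) are limited by depth.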
